A study of Mus musculus with 2 samples.

Results

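Oncofetal genes are genes that are active in the fetus, quiet in most adult tissues and active again in many tumors. The 9 members described here are AFP, GPC3, LIN28B, IGF2BP1, IGF2BP2, IGF2BP3, HMGA1, HMGA2 and SALL4. They were chosen by symbol, and all 9 of 9 were found among the 57011 gene labels of the expression table. Each stood on 1 row under its own symbol, so no member was part of a locus merged with another gene. RNA was sequenced from 2 patient-derived xenografts, that is, human tumors passaged in mice that lack T cells. The labels name the mouse as the organism, while the table uses human gene symbols and the processing notes a human build, so the values are read here as human transcripts, and the share of reads from mouse cells is unknown. The metastatic library came from a metastatic gastroenteropancreatic neuroendocrine tumor that grew in the peritoneal cavity of athymic nude mice (strain Foxn1nu). The primary library came from a primary tumor of the same type that grew in the flank of such mice. No treatment is given for either group, and both tumors were dissociated and pelleted before total RNA was extracted. Each group was 1 library, so the differences below carry no replicate error and no test. The sample titles have a code in common, but no label states that 1 patient gave both tumors. Tumor origin and graft site differed together and cannot be told apart.

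In the fetus these genes serve growth and the immature state of liver, gut and stem cells. AFP is the main serum protein of the fetal liver and yolk sac, and GPC3 is a heparan sulfate proteoglycan of the cell surface. SALL4 is a zinc finger transcription factor of embryonic stem cells. LIN28B is an RNA-binding protein that blocks the maturation of the let-7 microRNAs, and let-7 in turn represses LIN28B, HMGA2 and the IGF2BP mRNAs. The IGF2BP proteins bind and stabilise mRNAs, and HMGA1 and HMGA2 are small chromatin proteins that bind AT-rich DNA.

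The let-7 sequences are shown because let-7 is described above as a repressor of LIN28B, HMGA2 and the IGF2BP mRNAs. Whether let-7 acted on these mRNAs in the xenografts was not tested. The printed let-7 sequences are mouse sequences from RefSeq (GRCm38.p6), with the seed, bases 2 to 8, in capitals. Human and mouse share these mature sequences. All 9 mature members of the family that were looked up carried the same seed. A few of them are printed here, from chr13:48538239-48538260 (minus strand), chr15:85707325-85707346 (plus), chr13:48536078-48536099 (minus) and chr9:106178846-106178867 (plus).
let-7a-5p: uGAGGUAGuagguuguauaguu
let-7b-5p: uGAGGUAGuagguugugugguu
let-7d-5p: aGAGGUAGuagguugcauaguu
let-7g-5p: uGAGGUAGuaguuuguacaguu

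The seed pairs with CTACCTC, which was searched on the sense strand only in the longest annotated 3′ UTR of each mouse gene, since human transcripts were not used here. Of 21685 mouse genes with a 3′ UTR, 8.75% held at least 1 match and 1.04% held 2 or more. The mouse genes Lin28b, Hmga2 and Igf2bp1 each held 4 matches, and 0.0553% of genes held as many or more. Igf2bp2, Igf2bp3, Hmga1 and Sall4 held 1 match each, and Afp and Gpc3 held 0. Long UTRs hold more matches by their length. Among UTRs within 25% of the length of Lin28b, Hmga2 and Igf2bp1, 23.6%, 15.9% and 32.2% held at least 1 match. The share with 4 matches at like length was not computed. At like lengths to Igf2bp2, Igf2bp3, Hmga1 and Sall4, 11.5%, 12.9%, 8.13% and 11.1% of UTRs held at least 1 match. A match is a run of letters and not a measured binding site. The first match of each mouse UTR of Lin28b, Hmga2 and Igf2bp1 is printed with the bases before and after it, the match in capitals. The sites lie on the minus strand of GRCm38 at chr10:45381022-45381043 for Lin28b, chr10:120364224-120364245 for Hmga2 and chr11:95961778-95961799 for Igf2bp1.
Lin28b: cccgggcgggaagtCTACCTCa
Hmga2: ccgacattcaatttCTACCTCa
Igf2bp1: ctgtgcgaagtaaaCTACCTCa

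The question was how the members differed between the metastatic and the primary xenograft. Levels are FPKM as deposited, that is, fragments scaled to transcript length and to a library total, so levels of different genes can be set side by side. Log2 ratios are metastatic over primary after adding 1 FPKM to each value, which understates differences of low genes. The threshold for calling a gene higher or lower was a 2-fold difference on that scale. GPC3, SALL4 and LIN28B were at least 2-fold lower in the metastatic library, 0 members were higher by that much, and 6 were within 2-fold. Of 13811 entries with at least 1 FPKM in a library, 9.35% were lower by that threshold and 9.22% were higher, 18.6% in all. All 9 members passed that filter, and LIN28B passed it through the primary library alone. The median log2 ratio of the members was -0.44, against 0.03 over all expressed entries. The ratio was below 0 for 6 members and above 0 for AFP, IGF2BP1 and HMGA1. Since most expressed entries were within 2-fold, a gene list that is mostly within 2-fold is like the expressed entries at large.

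**Figure D1:**
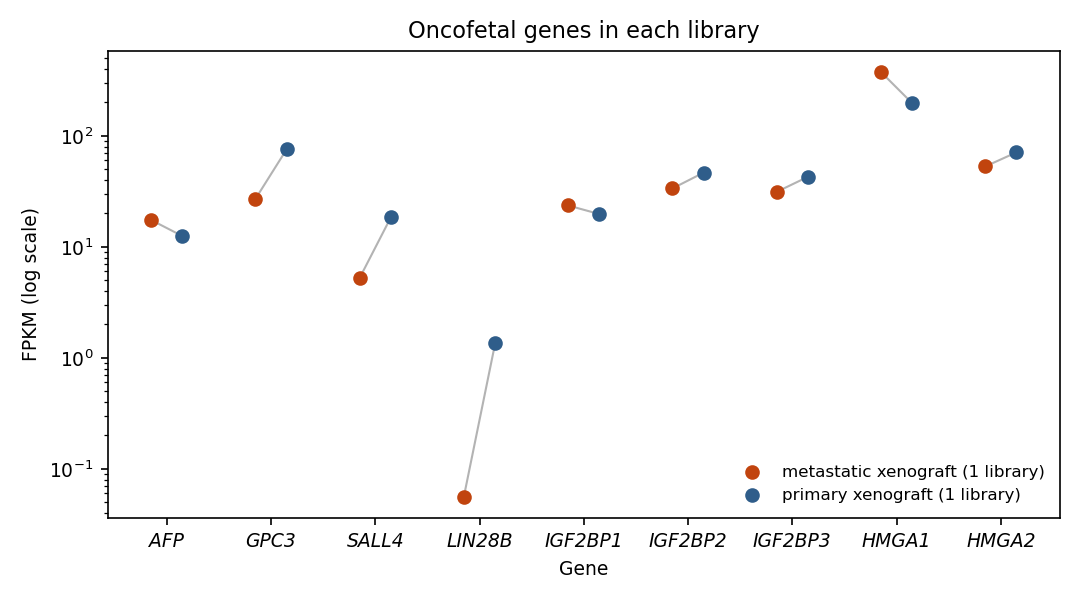
FPKM of each oncofetal gene, on a log axis, in the metastatic library (left point of each pair) and the primary library (right point), with 1 library per group and no error bar. LIN28B has the widest gap, 0.0562 FPKM in the metastatic and 1.35 FPKM in the primary library, and HMGA1 has the highest level in both.

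The members spanned a wide range of levels in each library. In the metastatic library HMGA1 stood highest at 376 FPKM, followed by HMGA2 at 53.0, IGF2BP2 at 33.6, IGF2BP3 at 31.3, GPC3 at 27.0, IGF2BP1 at 23.6, AFP at 17.5, SALL4 at 5.23 and LIN28B at 0.0562 FPKM. In the primary library the order was HMGA1 at 197 FPKM, GPC3 at 75.6, HMGA2 at 71.0, IGF2BP2 at 46.7, IGF2BP3 at 42.8, IGF2BP1 at 19.7, SALL4 at 18.5, AFP at 12.5 and LIN28B at 1.35 FPKM. GPC3 was thus the fifth member by level in the metastatic library and the second in the primary library, while AFP and SALL4 changed places. With 1 library per group, whether neighbours in either order differ beyond replicate spread cannot be assessed. HMGA1 alone made up 66.3% of the members' summed FPKM in the metastatic library and 40.6% in the primary library.

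**Figure D2:**
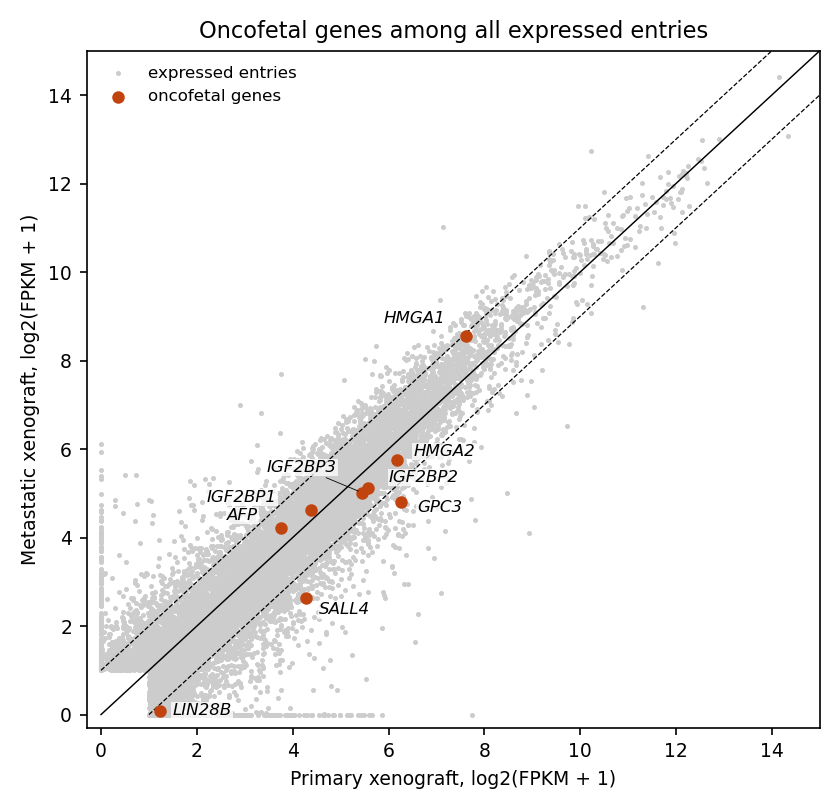
Each of the 13811 expressed entries by log2(FPKM + 1) in the primary library (x axis) and the metastatic library (y axis), with oncofetal genes in colour. The solid line marks equal values and the dashed lines a 2-fold difference. GPC3, SALL4 and LIN28B lie below the lower dashed line, and HMGA1 lies just under the upper one.

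Of the secreted and cell surface members, AFP was slightly higher and GPC3 lower in the metastatic library. AFP stood at 17.5 FPKM in the metastatic library and 12.5 FPKM in the primary library, a log2 ratio of 0.45. Higher ratios were held by 27.8% of expressed entries. ALB, the adult counterpart of AFP and its neighbour in the albumin family, stood at 34.1 FPKM in the metastatic and 19.01 FPKM in the primary library. The ratio of AFP to ALB within a library, which no scaling can move, was 0.512 in the metastatic and 0.658 in the primary library. The other albumin family genes, AFM and GC, were under 1 FPKM in both.

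Markers of hepatocytes also differed between the libraries. Of 14 hepatocyte markers, 9 were expressed apart from a merged locus, and of these 6 were at least 2-fold higher and 1 was lower in the metastatic library. The shares over all expressed entries were 9.22% higher and 9.35% lower. Among the higher markers, APOA1, APOA2 and APOB passed the filter of 1 FPKM through the metastatic library alone. Their place in this count follows from their level there. The summed level of the 13 markers not in a merged locus was 1186 FPKM in the metastatic and 450 FPKM in the primary library. The 3 fibrinogen chain genes made up most of that sum, with 966 FPKM in the metastatic and 261 FPKM in the primary library. FGB, the most abundant of them, stood at 499 FPKM in the metastatic and 111 FPKM in the primary library. CPS1, an enzyme of the urea cycle, went the other way and stood at 2.96 FPKM in the metastatic and 31.7 FPKM in the primary library. Some defining markers of mature hepatocytes, CYP3A4, AHSG and TAT, were near 0 in both libraries. CYP3A4, a drug-metabolising enzyme, stood at 0.141 FPKM in the metastatic library and was listed at 0 in the primary library, and AHSG stood at 0.0312 FPKM in the metastatic library and was listed at 0 in the primary library. The part of these markers in the AFP value was not tested. Of 9 yolk sac and germ cell markers 2 were expressed, FOXA2 and VIL1, both within 2-fold. The summed level of the 9 was 68.5 FPKM in the metastatic and 41.9 FPKM in the primary library. Most of that sum was VIL1, at 55.6 FPKM in the metastatic and 30.3 FPKM in the primary library. DPPA3 was listed at 0 in both, and the pluripotency factor POU5F1 stood at 0.215 FPKM in the metastatic and 0.428 FPKM in the primary library. FOXA2, a factor of the endoderm, stood at 10.8 FPKM in the metastatic and 10.5 FPKM in the primary library.

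The regulators of AFP and of the albumin family were mostly within 2-fold, as were expressed entries at large. Of the 13 expressed genes of that list other than AFP, 0 were at least 2-fold higher and 1 was lower, with a median log2 ratio of 0.16. The shares over all expressed entries were 9.22% higher and 9.35% lower. The lower gene was ZHX2, a repressor of Afp in adult mouse liver. ZHX2 stood at 7.47 FPKM in the metastatic library and 25.5 FPKM in the primary library, a log2 ratio of -1.64. ZBTB20, another repressor of Afp in mouse liver, stood at 4.65 FPKM in the metastatic and 6.05 FPKM in the primary library. Of the activating liver factors, HNF4A and CEBPA stood at 13.2 and 6.92 FPKM in the metastatic library, against 13.4 and 4.94 FPKM in the primary library. FOXA3 stood at 25.8 FPKM in the metastatic and 41.8 FPKM in the primary library and PROX1 at 5.61 FPKM in the metastatic and 9.79 FPKM in the primary library.

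GPC3 stood at 27.0 FPKM in the metastatic library and 75.6 FPKM in the primary library. This was 2.80-fold lower in the metastatic library on the FPKM scale, with a log2 ratio of -1.45, and 4.12% of expressed entries had a lower ratio. In a sample of bulk RNA, fewer cells that express a gene and less of its RNA per cell cannot be told apart. GPC1 and GPC4, which also carry heparan sulfate chains at the cell surface, were at least 2-fold lower as well. GPC1 stood at 15.3 FPKM in the metastatic and 59.3 FPKM in the primary library, and GPC4 at 0.213 FPKM in the metastatic and 2.43 FPKM in the primary library. GPC4 passed the filter of 1 FPKM through the primary library alone. GPC6 stood at 0.968 FPKM in the metastatic and 1.96 FPKM in the primary library, within 2-fold on the log2(FPKM + 1) scale. GPC2 was under 1 FPKM in both, and GPC5 was listed at 0 in both. Summed over all 6 glypicans, the level was 43.5 FPKM in the metastatic and 140 FPKM in the primary library. GPC3 made up 62.0% of that sum in the metastatic and 54.1% in the primary library, while GPC1 made up 35.1% in the metastatic and 42.4% in the primary library.

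The enzymes that build and trim heparan sulfate did not all follow the glypicans. Of 16 expressed genes of the list other than GPC3, 4 were at least 2-fold lower and 0 higher, against 9.35% and 9.22% of all expressed entries. The median log2 ratio of the 16 was -0.52. The 16 include GPC1, GPC4, GPC6 and FURIN, so this count and median are not those of the enzymes alone. Besides GPC1 and GPC4 the lower genes were SULF2 and SULF1, which remove sulfate groups from heparan sulfate outside the cell. SULF2 stood at 6.35 FPKM in the metastatic and 24.4 FPKM in the primary library, and SULF1 at 0.110 FPKM in the metastatic and 1.87 FPKM in the primary library. SULF1, like GPC4, passed the filter through the primary library alone, so its place in this count follows from its level there. With a filter of 5 FPKM, GPC4 and SULF1 dropped out and 3 genes of the list, GPC3 included, were lower, in place of 5. FURIN, a protease that cuts GPC3, stood at 162 FPKM in the metastatic and 294 FPKM in the primary library. The chain polymerase genes EXT1 and EXT2 stood at 32.6 and 19.7 FPKM in the metastatic library, against 51.1 and 16.8 FPKM in the primary library. Fibroblast markers differed as well. Of 8 fibroblast markers 6 were expressed, with 4 lower by the 2-fold threshold and 1 higher, against 9.35% and 9.22% of all expressed entries. The summed level of all 8 was 159 FPKM in the metastatic and 526 FPKM in the primary library. Most of that sum was COL1A2, a collagen gene, at 149 FPKM in the metastatic and 474 FPKM in the primary library. The other collagen genes of the list, COL1A1 and COL3A1, stood at 3.02 and 1.07 FPKM in the metastatic library, against 12.6 and 23.9 FPKM in the primary library. The higher marker was DCN, a matrix proteoglycan gene, at 2.89 FPKM in the metastatic and 0.370 FPKM in the primary library, and PDGFRB was within 2-fold. DCN passed the filter of 1 FPKM through the metastatic library alone, and FSTL1, a lower marker, through the primary library alone. LUM and POSTN were under 1 FPKM in both libraries, and the part of fibroblasts in the glypican values was not tested. Whether reads of these markers came from human tumor cells or from mouse cells is unknown. Of 6 endothelial markers 2 were expressed, EGFL7 and CLDN5, both at least 2-fold lower, against 9.35% of all expressed entries. The summed level of all 6 was 3.59 FPKM in the metastatic and 25.5 FPKM in the primary library. EGFL7 stood at 1.58 FPKM in the metastatic and 19.1 FPKM in the primary library. PECAM1, CDH5 and VWF were under 1 FPKM in both libraries, with VWF the higher in the metastatic library, and KDR was listed at 0 in both.

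Of the nuclear members, SALL4 had the lowest ratio of all 9 on the log2(FPKM + 1) scale, where LIN28B is shrunk by its low level. SALL4 stood at 5.23 FPKM in the metastatic library and 18.5 FPKM in the primary library, a log2 ratio of -1.64, and 3.14% of expressed entries had a lower ratio. Its paralog SALL1 was level, at 14.6 FPKM in the metastatic and 14.8 FPKM in the primary library, so SALL4 to SALL1 was 0.358 within the metastatic and 1.25 within the primary library. SALL2 stood at 0.741 FPKM in the metastatic and 4.20 FPKM in the primary library. Most partners of SALL4 in embryonic stem cells were not detected at a level that allows a comparison. Of the 16 genes of the SALL and pluripotency list, 10 were under 1 FPKM in both libraries, among them POU5F1, NANOG and SOX2, and TDGF1 stood in a merged locus. Of the 5 expressed genes, 3 were at least 2-fold lower in the metastatic library: SALL4, SALL2 and KLF4. The share over all expressed entries was 9.35%. SALL2 passed the filter of 1 FPKM through the primary library alone, and with a filter of 5 FPKM 2 genes of the list were lower. KLF4, a zinc finger factor also made in epithelia, stood at 9.50 FPKM in the metastatic and 36.1 FPKM in the primary library. DNMT3B, a DNA methyltransferase, stood at 2.52 FPKM in the metastatic and 2.58 FPKM in the primary library.

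The NuRD complex, a chromatin remodeling and deacetylase complex that SALL4 recruits, was mostly within 2-fold, as were expressed entries at large. Of 10 expressed subunit genes outside merged loci, 0 were at least 2-fold lower and 1 was higher, with a median log2 ratio of 0.10. The shares over all expressed entries were 9.35% lower and 9.22% higher. The higher gene was CDK2AP1, at 80.7 FPKM in the metastatic and 39.8 FPKM in the primary library. It lay at the 2-fold limit and was within 2-fold under each of the 3 scalings tried. MBD3, another subunit gene, stood only in a locus merged with UQCR11, at 313 FPKM in the metastatic and 131 FPKM in the primary library, and was not counted. MBD2, a methyl-CpG binding subunit, stood at 252 FPKM in the metastatic and 126 FPKM in the primary library. The deacetylase genes HDAC1 and HDAC2 stood at 113 and 152 FPKM in the metastatic library, against 139 and 124 FPKM in the primary library.

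LIN28B stood at 0.0562 FPKM in the metastatic library and 1.35 FPKM in the primary library. Its log2 ratio was -1.15 with 1 FPKM added to each value and -4.59 with none added, so the size depends on the pseudocount. The FPKM themselves were 24.0-fold lower in the metastatic library. The number of fragments behind 0.0562 FPKM is unknown, and at that level a few fragments can set the fold. LIN28A, the paralog of LIN28B, was at or near 0 in both libraries, with 0.0259 FPKM in the metastatic library and 0 in the primary library.

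The proteins that make, trim and destroy let-7 precursors were mostly level. Of 9 expressed genes of that list other than LIN28B, 1 was at least 2-fold lower and 0 were higher, with a median log2 ratio of -0.10. Over all expressed entries 9.35% were lower and 9.22% higher. The lower gene was DICER1, which cuts let-7 precursors into the mature form, at 14.8 FPKM in the metastatic and 36.6 FPKM in the primary library. DROSHA, which makes the first cut in the nucleus, stood at 102 FPKM in the metastatic and 84.8 FPKM in the primary library, and its partner DGCR8 at 13.1 FPKM in the metastatic and 9.04 FPKM in the primary library. TUT4, which adds uridines to let-7 precursors bound by LIN28, stood at 35.2 FPKM in the metastatic and 43.7 FPKM in the primary library. DIS3L2, the nuclease that degrades the tailed precursor, stood at 37.2 FPKM in the metastatic and 40.0 FPKM in the primary library. XPO5, the exporter of precursors, stood at 79.2 FPKM in the metastatic and 59.5 FPKM in the primary library.

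Mature let-7 was not measured, but 2 loci whose rows name let-7 hairpins were expressed. These loci were chosen after their values were seen. The locus that holds MIRLET7A3, MIRLET7B and the host gene MIRLET7BHG stood at 53.2 FPKM in the metastatic library and 16.2 FPKM in the primary library, a log2 ratio of 1.66. The row also names PRR34-AS1, so its reads cannot be given to 1 transcript. The locus that holds MIRLET7A1, MIRLET7D and MIRLET7F1 stood at 11.6 FPKM in the metastatic and 11.2 FPKM in the primary library. The other 7 let-7 and miR-98 rows were listed at 0 in both libraries. Each of those rows names a hairpin alone. Host genes under other symbols were not looked up, so these values do not tell whether such hosts were expressed.

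Genes known as let-7 targets did not move together. Of 17 targets that are no member and were expressed outside merged loci, 1 was at least 2-fold higher and 0 were lower. Their median log2 ratio was 0.10. Over all expressed entries 9.22% were higher and 9.35% lower. The higher gene was CDC25A, a phosphatase that drives entry into S phase, at 22.3 FPKM in the metastatic and 5.41 FPKM in the primary library. CDC34, a ubiquitin-conjugating enzyme, stood at 123 FPKM in the metastatic and 66.5 FPKM in the primary library, and MYC at 144 FPKM in the metastatic and 126 FPKM in the primary library. The growth factor receptor gene IGF1R stood at 17.8 FPKM in the metastatic and 36.2 FPKM in the primary library, a log2 ratio of -0.99. It was at least 2-fold lower under each of the 3 scalings and with pseudocounts of 0.1 and 0.5 FPKM.

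The IGF2BP genes were expressed at like levels and were within 2-fold. IGF2BP1 stood at 23.6 FPKM in the metastatic library and 19.7 FPKM in the primary library, a log2 ratio of 0.25. IGF2BP2 stood at 33.6 FPKM in the metastatic and 46.7 FPKM in the primary library, a log2 ratio of -0.46. IGF2BP3 stood at 31.3 FPKM in the metastatic and 42.8 FPKM in the primary library, a log2 ratio of -0.44. IGF2BP1 thus leaned the other way from its paralogs, and its share of the summed IGF2BP level was 26.7% in the metastatic and 18.1% in the primary library. Together the 3 genes summed to 88.4 FPKM in the metastatic and 109 FPKM in the primary library. The ratio of IGF2BP1 was nearest to 0 after each library was rescaled to the same sum, at 0.08.

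Of the proteins that share RNA granules with IGF2BP1 and the mRNAs bound by it, 11 genes were expressed outside merged loci. All 11 were within 2-fold, with a median log2 ratio of 0.29. Over all expressed entries only 18.6% differed by at least 2-fold in either direction. YBX1, an abundant mRNA-binding protein, stood at 1364 FPKM in the metastatic and 933 FPKM in the primary library. The helicase gene DHX9 stood at 128 FPKM in the metastatic and 71.6 FPKM in the primary library, and HNRNPU at 413 FPKM in the metastatic and 269 FPKM in the primary library. ACTB, whose mRNA is a classic cargo of IGF2BP1, stood at 2773 FPKM in the metastatic and 2341 FPKM in the primary library. The mRNA that gave the family its name, IGF2, stood only in a locus merged with INS and INS-IGF2. That locus had 8637 FPKM in the metastatic and 20789 FPKM in the primary library. Its log2 ratio was -1.27, past the 2-fold limit, and it was not counted among the 11. SYNCRIP also stood in a merged locus, at 201 FPKM in the metastatic and 158 FPKM in the primary library, and was not counted.

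HMGA1 and HMGA2 went opposite ways. HMGA1 stood at 376 FPKM in the metastatic library and 197 FPKM in the primary library, which is 1.91-fold higher, with a log2 ratio of 0.93. Higher ratios were held by 10.7% of expressed entries. HMGA2 stood at 53.0 FPKM in the metastatic and 71.0 FPKM in the primary library, a log2 ratio of -0.42. Within a library, HMGA1 exceeded HMGA2 by 7.10-fold in the metastatic and 2.77-fold in the primary tumor. HMGA1 has near-identical processed copies. Of 7 HMGA1 pseudogene rows, 4 were listed at 0 in both libraries, and the highest, HMGA1P2, stood at 7.85 FPKM in the metastatic and 6.49 FPKM in the primary library. HMGA2-AS1, which is transcribed against HMGA2, stood at 0.0763 FPKM in the metastatic and 0.746 FPKM in the primary library. The labels do not say whether counting used strand, so reads of this pair cannot be told apart. The antisense rows of GPC3, LIN28B and IGF2BP2 were listed at 0 in both libraries.

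**Figure D3:**
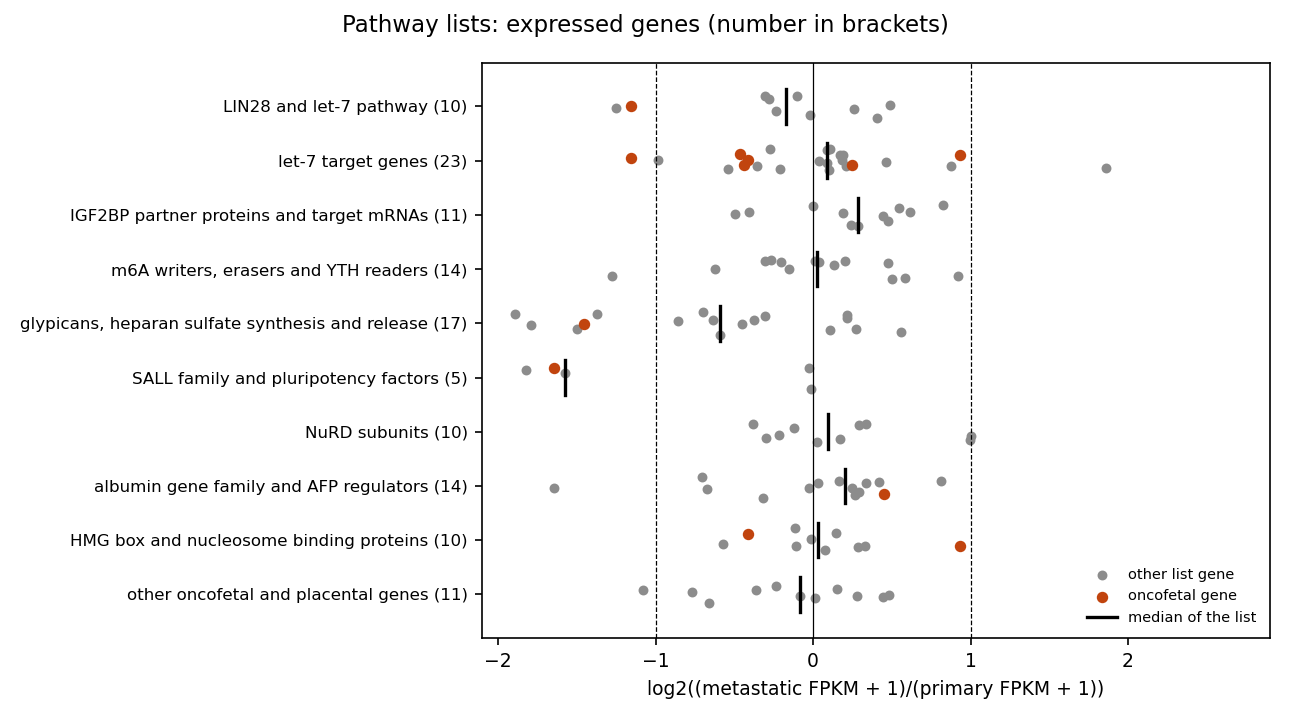
Log2 ratio, metastatic over primary with 1 FPKM added, of each gene (points) of 10 gene lists that was expressed outside merged loci. Oncofetal genes are in colour and the list median is a vertical bar. Points are spread vertically for legibility, and dashed lines mark a 2-fold difference. The glypican list and the SALL list have the lowest medians, -0.59 and -1.58 with oncofetal genes included. Without oncofetal genes their medians are -0.52 and -0.80, and the SALL value rests on 4 genes.

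Markers of the labelled tumor type were also looked up. Of 12 neuroendocrine markers 7 were expressed outside merged loci, with 2 at least 2-fold higher and 3 lower in the metastatic library. The shares over all expressed entries were 9.22% higher and 9.35% lower. Among the lower markers, INSM1 and SCG2 passed the filter of 1 FPKM through the primary library alone. Their place in this count follows from their level there. The summed level of the 10 markers outside merged loci was 814 FPKM in the metastatic and 303 FPKM in the primary library, most of it UCHL1. UCHL1 and DDC, the higher markers, stood at 705 and 103 FPKM in the metastatic library, against 225 and 48.1 FPKM in the primary library. PCSK1 was lower, at 2.74 FPKM in the metastatic and 19.9 FPKM in the primary library. CHGB stood at 0.336 FPKM in the metastatic and 1.64 FPKM in the primary library, and NCAM1 and SCG3 were under 1 FPKM in both. CHGA was listed at 0 in both libraries. An exact 0 in this table can be a failed estimate, since LDHA, an enzyme of nearly every cell, also stood at 0 in both columns. SYP stood at 1.96 FPKM in the metastatic and 1.63 FPKM in the primary library. INSM1, a neuroendocrine transcription factor, stood at 0.271 FPKM in the metastatic and 3.54 FPKM in the primary library. Of 7 leukocyte markers 2 were expressed outside merged loci, with a summed level of 12.7 FPKM in the metastatic and 4.66 FPKM in the primary library. LYZ was at least 2-fold higher in the metastatic library, CSF1R was within 2-fold, PTPRC was under 1 FPKM in both and CD3E was listed at 0 in both.

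The FPKM of all rows summed to 885319 in the metastatic and 784987 in the primary library, and read depth is unknown. The labels do not say which total each column was divided by. Rescaling to the same sum moved the median log2 ratio of all expressed entries by -0.16 and the share of higher genes among called ones to 35.8%, in place of 49.6%. GPC3, SALL4 and LIN28B were at least 2-fold lower under all 3 scalings, and 0 members were higher. The other 6 members kept the sign of their ratio and stayed within 2-fold.

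**Figure D4:**
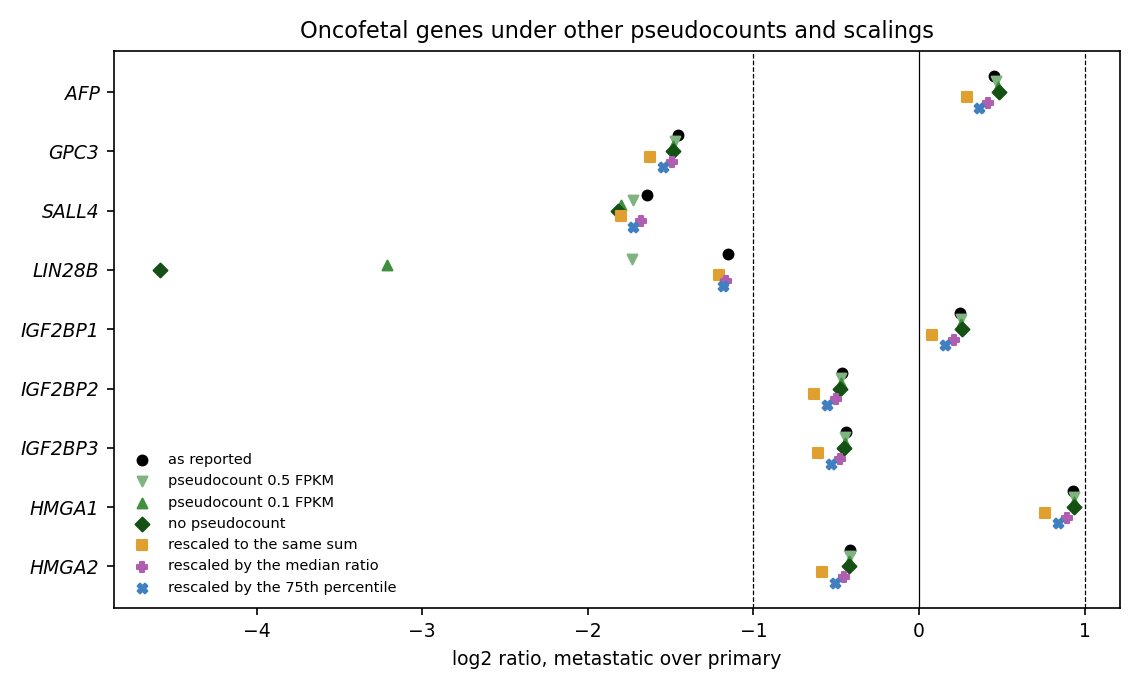
Log2 ratio, metastatic over primary, of each oncofetal gene as reported (black circles), with other pseudocounts (green) and with 3 scalings. Dashed lines mark a 2-fold difference. LIN28B runs from -1.15 to -4.59 with the pseudocount, and the other members shift by small amounts without crossing a line.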

How the data were processed

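The authors deposited 1 table of 62573 rows with an FPKM column for each library, per the file headers. Per the submitters' processing notes, the tools were Cufflinks 2.2.1, STAR 2.7.6a and bcl2fastq 2.18.0.12 with the build GRCh38, and their roles are not stated. The labels do not name the annotation or filters, nor how strand and reads from mouse cells were handled. No counts were used, so depth, intervals and floors are unknown, and precision rests on 1 library per group.

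Rows with the same label were summed, which gave 57011 labels. A row naming several symbols was counted for a gene only where the others were clone names, short RNAs, intergenic noncoding RNAs or antisense RNAs. Entries with at least 1 FPKM in a library (13811, of which 958 name several symbols) were compared by log2((metastatic + 1)/(primary + 1)) at a 2-fold threshold, without a test. Python 3.11.15 with pandas 2.3.3 and numpy 2.4.6 was used, and the calculation was tested on simulated data. Named genes were all 9 members and, from each list, up to 5 expressed genes of largest absolute ratio and 3 of highest level; other genes and the marker genes were named after their values were seen. The members and lists were chosen with earlier results of these data known. Let-7 sequences came from mouse RefSeq and 3′ UTRs from GENCODE mouse transcripts. Alternatives were other pseudocounts, filters, thresholds and scalings, the highest of rows with 1 label, and no merged loci.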

Additional observations from a re-analysis of the deposited data

How the results depend on the processing

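No paired analysis was possible because each group is 1 library, and leaving out a library was not possible either. At a 4-fold threshold GPC3 (-1.45), SALL4 (-1.64) and LIN28B (-1.15) were no longer called, so 0 members were lower, and 165 entries were higher and 259 lower. With a filter of 5 FPKM 859 entries were lower and fewer genes were tested, and LIN28B dropped out. With a pseudocount of 0.1 FPKM 1766 entries were higher and 1906 lower. Under the other pseudocounts, filters, scalings and row choices, and without a pseudocount (a setting added after seeing the data), the 9 members kept their direction. AFP ran from 0.29 to 0.48, GPC3 from -1.62 to -1.45, SALL4 from -1.82 to -1.64, IGF2BP1 from 0.08 to 0.26, IGF2BP2 from -0.63 to -0.46, IGF2BP3 from -0.61 to -0.44, HMGA1 from 0.76 to 0.94 and HMGA2 from -0.59 to -0.42. The median of the members ran from -0.61 to -0.43. Without a filter the median of the SALL and pluripotency list was -0.05, since most of its genes are near 0 in both libraries. Differences of genes near 1 FPKM, LIN28B among them, are limited by the unknown depth.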

Other observations

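The writers, erasers and readers of m6A, the RNA mark that IGF2BP proteins also bind, were near level. Of 14 expressed genes 1 was at least 2-fold lower and 0 were higher in the metastatic library, with a median log2 ratio of 0.03. Over all expressed entries 9.35% were lower and 9.22% higher. The lower gene was FTO, an m6A eraser, at 9.62 FPKM in the metastatic and 24.7 FPKM in the primary library. YTHDF1, a reader, stood at 30.8 FPKM in the metastatic and 15.8 FPKM in the primary library, and the writer METTL14 at 9.59 FPKM in the metastatic and 15.3 FPKM in the primary library. YTHDC1 was listed at 0 in both.

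On the list of other oncofetal and placental genes, 11 were expressed outside merged loci. Of these, 1 was at least 2-fold lower and 0 were higher, with a median log2 ratio of -0.08. The shares over all expressed entries were 9.35% lower and 9.22% higher. The lower gene was DLK1, a fetal membrane protein, at 1883 FPKM in the metastatic and 3977 FPKM in the primary library. MDK, a heparin-binding growth factor, was level at 533 FPKM in the metastatic and 529 FPKM in the primary library. ROR1 stood at 2.50 FPKM in the metastatic and 4.97 FPKM in the primary library, and EPCAM at 85.5 FPKM in the metastatic and 62.5 FPKM in the primary library. H19, TPBG and PRAME were listed at 0 in both. IGF2 and L1CAM stood in merged loci and were not counted. The locus of IGF2 had a log2 ratio of -1.27. That of L1CAM stood at 231 FPKM in the metastatic and 144 FPKM in the primary library.

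The HMG box and HMGN genes stayed closer together than HMGA1 and HMGA2. The 8 expressed members of that list outside the HMGA pair were all within 2-fold, with a median log2 ratio of 0.03. HMGB2, which is higher in dividing cells, stood at 117 FPKM in the metastatic and 174 FPKM in the primary library, and HMGB3 at 292 FPKM in the metastatic and 295 FPKM in the primary library.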
